A study of Mus musculus with 9 samples.

Results

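The RGS (regulator of G protein signaling) genes examined here were *Rgs8*, *Rgs2*, *Rgs3*, *Rgs4*, *Rgs10*, *Rgs12*, *Rgs16*, *Rgs17* and *Rgs19*. These 9 genes were taken by symbol from the 47729 genes listed for each sample, and 13 further *Rgs* genes in the same tables served for comparison. *Rgs8* was selected on its high level in the lens and on its rise in *Le-Cre* lenses, so its level and its difference between *Le-Cre* and *FVB/N* are given as a description without a test. Polyadenylated RNA from whole newborn (P0) lenses of 3 mouse lines was measured by RNA-Seq. Each line gave 3 pools, and each pool combined the 6 lenses of 3 animals. All mice had the *FVB/N* strain background. *FVB/N* mice carried no transgene, *P0-3.9GFPCre* mice were hemizygous for a transgene in which *Pax6* regulatory sequence including the P0 promoter drives a fusion of GFP and CRE, and *Le-Cre* mice were hemizygous for a transgene that expresses CRE and GFP separately under *Pax6* P0 promoter control. Both transgenes express CRE in the lens epithelium and in other derivatives of the surface ectoderm, and the *Le-Cre* line descends from a single founder. The labels give no floxed allele for any group.

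RGS proteins switch off signaling by heterotrimeric G proteins. A receptor activates a G protein by letting its alpha subunit bind GTP, and the RGS domain holds the alpha subunit in the shape in which GTP is hydrolyzed fastest, which shortens the signal. *Rgs2*, *Rgs3*, *Rgs4*, *Rgs8* and *Rgs16* belong to the subfamily of mostly small proteins that act on the Gi/o and Gq classes of alpha subunits, *Rgs10* and *Rgs12* to a subfamily with a preference for Gi/o, and *Rgs17* and *Rgs19* to a subfamily with a cysteine string that anchors the protein to membranes. *Rgs8* is best known from cerebellar Purkinje cells and from the gating of G protein-activated potassium channels.

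*Rgs8* and *Rgs16* lie near each other on chromosome 1 of GRCm38 and are transcribed in the same direction. *Rgs8* (ENSMUSG00000042671) spans chr1:153653025-153700323 and *Rgs16* (ENSMUSG00000026475) spans chr1:153740349-153745468, both on the plus strand, so that their starts are 87.3 kb apart. The 250 bases upstream of each start in RefSeq (GRCm38.p6, plus strand, 5′ to 3′) are shown for these neighbors. *Rgs8* was picked for its rise in *Le-Cre*, and *Rgs16* was added after its values were seen. No difference of *Rgs16* between lines passed the cutoff given below. RefSeq gives 3 starts for *Rgs8* and 1 for *Rgs16*, each directly after its upstream window. The *Rgs8* windows are chr1:153652787-153653036, chr1:153665024-153665273 and chr1:153665423-153665672, and the *Rgs16* window is chr1:153740103-153740352. Capitals mark matches on either strand to TATAAA, the usual form of the TATA box, to CCAAT, which the factor NF-Y binds, or to GGGCGG, the GC box of Sp factors.
Rgs8 start 1: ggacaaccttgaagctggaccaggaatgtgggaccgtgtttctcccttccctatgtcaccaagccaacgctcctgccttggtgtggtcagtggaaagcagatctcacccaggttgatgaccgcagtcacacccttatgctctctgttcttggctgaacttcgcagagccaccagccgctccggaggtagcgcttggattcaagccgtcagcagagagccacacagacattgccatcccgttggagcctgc
Rgs8 start 2: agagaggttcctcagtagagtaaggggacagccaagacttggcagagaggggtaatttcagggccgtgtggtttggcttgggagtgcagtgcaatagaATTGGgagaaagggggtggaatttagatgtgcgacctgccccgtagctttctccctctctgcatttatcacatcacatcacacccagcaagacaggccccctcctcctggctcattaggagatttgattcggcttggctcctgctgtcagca
Rgs8 start 3: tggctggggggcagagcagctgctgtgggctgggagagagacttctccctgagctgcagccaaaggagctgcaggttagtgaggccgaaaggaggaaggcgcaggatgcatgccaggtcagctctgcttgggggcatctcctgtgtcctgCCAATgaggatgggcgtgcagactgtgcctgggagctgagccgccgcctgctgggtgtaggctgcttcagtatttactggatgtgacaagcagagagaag
Rgs16: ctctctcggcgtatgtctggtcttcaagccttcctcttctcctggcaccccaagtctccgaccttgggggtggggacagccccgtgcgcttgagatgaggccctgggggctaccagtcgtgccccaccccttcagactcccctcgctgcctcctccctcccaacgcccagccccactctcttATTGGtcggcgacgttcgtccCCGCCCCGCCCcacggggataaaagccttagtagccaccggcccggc
The window at the first *Rgs8* start held no match, and the windows at the other *Rgs8* starts each held a CCAAT box. The *Rgs16* window held a CCAAT box and a run of capitals in which a pair of GC box matches overlap. Among 32851 RefSeq promoter windows of this length, 12.4% held the TATA box, 33.8% the CCAAT box and 32.7% the GC box. The 3 *Rgs8* windows held 9, 4 and 5 CpG dinucleotides and the *Rgs16* window held 17, against a median of 6 over all windows. The gene-level tables do not tell which start the lens RNA came from.

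The pools were of similar depth and of lens identity. Library totals were 23299676 to 26959813 estimated reads in *FVB/N*, 20670968 to 23291675 in *P0-3.9GFPCre* and 22615381 to 28098059 in *Le-Cre*. All 10 lens markers, which encode crystallins and fiber cell membrane and cytoskeletal proteins, were above 0 in every pool, and their summed level was 219000 to 269000 transcripts-per-million (TPM, a level scaled for transcript length and depth). Markers of other tissues were low beside the lens markers, with summed levels of 85.1 to 263 TPM for 6 blood genes, 19.6 to 39.7 TPM for 5 endothelial genes and 0.84 to 4.06 TPM for 6 retinal genes. The blood sums exceeded the level of every RGS gene given below, and the part of such cells in the RGS levels was not tested. The 5 markers of pigmented and ciliary epithelium summed to 0.88 to 9.65 TPM, with *FVB/N* replicate 2 highest and the other pools at 4.76 TPM or less. The 4 cornea markers summed to 0.03 to 0.53 TPM in *FVB/N*, 0 to 0.45 in *P0-3.9GFPCre* and 0 to 0.04 in *Le-Cre*, with *Krt12* and *Krt14* at 0 in all pools. The summed level of 4 genes of the Y chromosome (*Uty*, *Kdm5d*, *Ddx3y* and *Eif2s3y*) was 121 to 193 counts-per-million (CPM) in *FVB/N*, 1.67 to 135 in *P0-3.9GFPCre* and 0.619 to 74.2 in *Le-Cre*, so that the pools differed in their share of RNA from males. In whole lenses a lower level from fewer cells of a type and one from less RNA per cell cannot be told apart.

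*Rgs8*, picked in part for its high level in the lens, was the most abundant RGS gene of the newborn lens in all 3 lines. In *FVB/N* its level was 15.3, 11.9 and 12.6 TPM in replicates 1, 2 and 3 (13.3 ± 1.83, SD, n = 3), above 73.0% of the 15557 genes with enough reads to be tested. *Rgs4*, a regulator first studied in brain and heart, followed with 5.85 ± 1.42 TPM, and *Rgs3*, whose longer forms also bind ephrin-B, with 4.80 ± 0.446 TPM. *Rgs12*, a large scaffold with further domains that bind Ras and G alpha, stood at 3.81 ± 0.535 TPM and *Rgs19*, also called GAIP, at 2.08 ± 0.1 TPM. The lowest levels were those of *Rgs2* (1.20 ± 0.343 TPM), a regulator with a preference for Gq, *Rgs16* (1.11 ± 0.271 TPM), a gene whose transcription many stimuli induce, *Rgs10* (0.270 ± 0.197 TPM), known from microglia and other immune cells, and *Rgs17* (0.0300 ± 0.0346 TPM). The *FVB/N* ranges of *Rgs4* and *Rgs3*, *Rgs3* and *Rgs12*, *Rgs2* and *Rgs16*, and *Rgs10* and *Rgs17* overlapped, so the order within these pairs was not resolved. The ranges of the other neighbors in the order did not overlap.

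**Figure D1:**
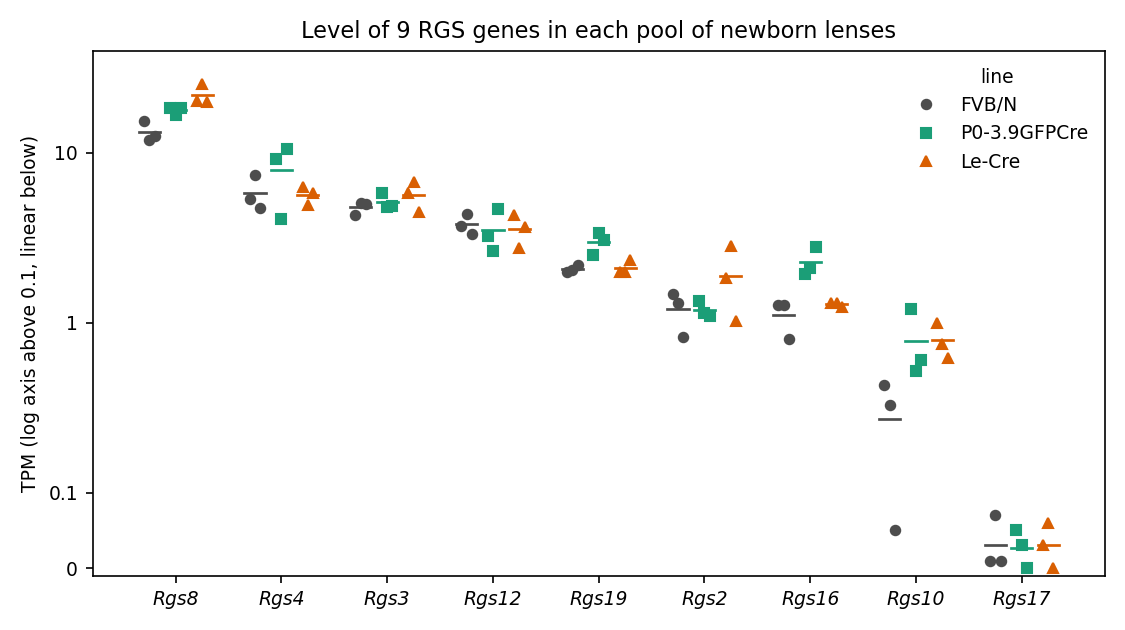
Level of the 9 RGS genes in TPM (vertical axis, logarithmic above 0.1) in each of the 3 pools per line, ordered by their level in FVB/N; points are pools and short bars are line means. Rgs8 lies above every other gene in all 9 pools, from 11.9 to 25.5 TPM, and Rgs17 is at or near 0.

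Among all 22 *Rgs* genes in the tables, *Rgs8* supplied the largest part of the summed TPM. Its share was 23.0 to 29.7% in *FVB/N*, 30.4 to 35.6% in *P0-3.9GFPCre* and 35.1 to 41.3% in *Le-Cre*. *Rgs8* was picked for its high level and its rise in *Le-Cre*, so the size of this share and its rise in *Le-Cre* are a description. The summed level of the other 8 genes examined was 16.9 to 21.9, 18.8 to 27.7 and 19.2 to 22.6 TPM in the same order of lines, and these ranges overlapped. Of the 13 further *Rgs* genes, *Rgs11* (6.62 TPM on average over the 9 pools), *Rgs5* (5.75 TPM) and *Rgs9* (1.21 TPM) were highest. *Rgs5* marks pericytes and vascular smooth muscle, and *Rgs9* and *Rgs11* encode partners of the G beta subunit encoded by *Gnb5* that are known from retinal photoreceptors and bipolar cells.

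The pools of the 3 lines did not overlap in *Rgs8*. In CPM, which is corrected for depth but not for transcript length, *Rgs8* stood at 71.3, 56.5 and 58.6 in the *FVB/N* pools, at 76.6, 85.3 and 88.2 in the *P0-3.9GFPCre* pools and at 98.7, 99.7 and 108 in the *Le-Cre* pools. Every *P0-3.9GFPCre* pool lay above every *FVB/N* pool and below every *Le-Cre* pool. The gap between *Le-Cre* and *FVB/N* follows from how *Rgs8* was picked. Of all tested genes, 13.5% had non-overlapping pools in *Le-Cre* against *FVB/N*. The share was 12.0% in *P0-3.9GFPCre* against *FVB/N* and 14.1% in *Le-Cre* against *P0-3.9GFPCre*. The means were 62.1 ± 7.99, 83.4 ± 6.01 and 102 ± 4.91 CPM (SD, n = 3 each). With 1313 to 2775 estimated reads per pool, counting error was 1.97 to 2.55% within a line and smaller than the coefficient of variation between pools of 4.81 to 12.9%. RSEM's mean transcript length for *Rgs8* varied from 4493 to 5589 bases between pools, and the *Le-Cre* pools at 20.1, 25.5 and 20.1 TPM spread more on the TPM scale (coefficient of variation 14.2%) than in CPM (4.81%).

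**Figure D2:**
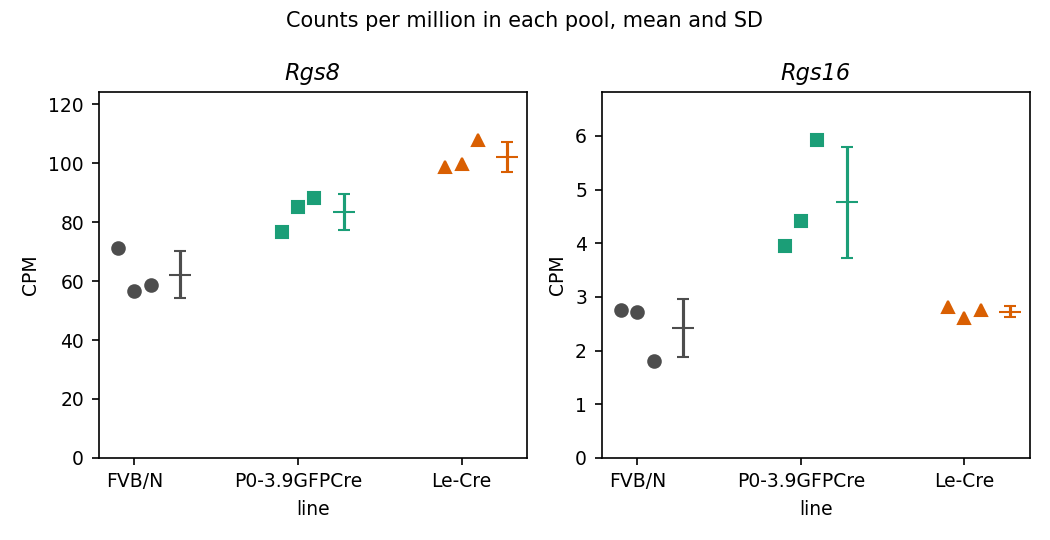
CPM (vertical axes, from 0) of Rgs8 and Rgs16 in the 3 pools of each line; points are pools, and the bar with whiskers beside them gives the mean and SD. Rgs8 steps up from FVB/N (56.5 to 71.3) over P0-3.9GFPCre (76.6 to 88.2) to Le-Cre (98.7 to 108), while Rgs16 is high only in P0-3.9GFPCre (3.95 to 5.93 against 1.80 to 2.81 in the other pools).

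In *Le-Cre* against *FVB/N*, the contrast for which the gene was picked, *Rgs8* was 1.64-fold higher (log2 fold change 0.72, SE 0.09). The cutoff asked for a 1.5-fold difference and for p no higher than 0.05 in the edgeR quasi-likelihood test after Benjamini-Hochberg adjustment over 15557 genes. It was passed by 10 genes (0.0643% of those tested) in this contrast, 7 higher and 3 lower in *Le-Cre*, and *Rgs8* was among them as its selection implies. When the fit included the Y-linked share, the log2 fold change of *Rgs8* was 0.62 and the gene was no longer past the cutoff. It also missed the cutoff with the replicate number as a block, with limma on log2 TPM, and without *FVB/N* replicate 2 or 3 or any of the 3 *Le-Cre* pools, at log2 fold changes of 0.65 to 0.74. The Y-linked level was 121 to 193 CPM in *FVB/N* and 0.619 to 74.2 CPM in *Le-Cre*, without overlap. Line and Y-linked share therefore cannot be told apart in this contrast. The part of the Y-linked share in the *Rgs8* values was not tested beyond this fit.

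Compared with *FVB/N*, *Rgs8* in *P0-3.9GFPCre* was 1.34-fold higher (log2 fold change 0.42, SE 0.09). This difference, which rests on the same *FVB/N* pools as the contrast used to pick the gene, stayed under the fold cutoff and had an adjusted p of 0.59 by the edgeR test (unadjusted p 0.000809). The DESeq2 Wald test gave an adjusted p of 0.0141 for the same fold. Between the transgenic lines, *Rgs8* was 1.22-fold higher in *Le-Cre* (log2 fold change 0.29, SE 0.09), with an adjusted p of 0.463 by the edgeR test (unadjusted p 0.00907), and this comparison shares the *Le-Cre* pools with the contrast used to pick the gene.

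*Rgs16* stood apart in *P0-3.9GFPCre* rather than in *Le-Cre*. It had 73, 63 and 44 estimated reads in the *FVB/N* pools, 96, 91 and 132 in the *P0-3.9GFPCre* pools and 79, 67 and 61 in the *Le-Cre* pools, or 2.42 ± 0.540, 4.76 ± 1.03 and 2.73 ± 0.102 CPM (SD, n = 3 each). All *P0-3.9GFPCre* pools lay above all pools of the other lines, whose values overlapped. Non-overlapping pools were found in 12.0% of all tested genes in *P0-3.9GFPCre* against *FVB/N* and in 14.1% in *Le-Cre* against *P0-3.9GFPCre*. *Rgs16* was 1.96-fold higher in *P0-3.9GFPCre* than in *FVB/N* (log2 fold change 0.97, SE 0.23), with an adjusted p of 0.59 by the edgeR test (unadjusted p 0.00132). In *Le-Cre* it was lower than in *P0-3.9GFPCre* (log2 fold change -0.80, SE 0.23), with an adjusted p of 0.423 by the edgeR test (unadjusted p 0.00451). *Le-Cre* against *FVB/N* gave a log2 fold change of 0.17 (SE 0.23, adjusted p 0.915 by the edgeR test). Neither difference that involved *P0-3.9GFPCre* passed the cutoff. *Rgs16* shares 8.30% of its 51-base sequences with the antisense gene *Gm28513*, which overlaps its exons and had 1 read over the 9 pools against 706 for *Rgs16*.

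The remaining small regulators of the same subfamily, *Rgs2*, *Rgs3* and *Rgs4*, had values that overlapped between the lines. *Rgs3* gave the steadiest values of the family, with 9.42 to 11.1 CPM in *FVB/N*, 10 to 11 in *P0-3.9GFPCre* and 9.72 to 11.2 in *Le-Cre*. Its log2 fold changes were 0.02 (SE 0.10) for *Le-Cre* and 0.02 (SE 0.11) for *P0-3.9GFPCre*, each against *FVB/N*. Of its 51-base sequences, 11.4% also occur in *Gm5763*, which had no reads in any pool.

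*Rgs4* varied more within *P0-3.9GFPCre* than between the lines. Its CPM was 13.8, 18.3 and 13.1 in *FVB/N*, 22.2, 10.6 and 26.3 in *P0-3.9GFPCre*, and 16.7, 12.5 and 16.2 in *Le-Cre*. *P0-3.9GFPCre* replicate 2 was thus the lowest of all 9 pools while the other *P0-3.9GFPCre* pools were the highest, and the coefficient of variation of 41.3% in this line exceeded the counting error of 4.72%. The log2 fold changes were 0.39 (SE 0.27, adjusted p 0.827 by the edgeR test) for *P0-3.9GFPCre* and 0.01 (SE 0.27, adjusted p 0.997) for *Le-Cre* against *FVB/N*. Without *P0-3.9GFPCre* replicate 2 the first of these was 0.69. That pool also had the highest Y-linked level of its line (135 CPM against 56.2 and 1.67), and in the fit that included the Y-linked share these log2 fold changes became -0.15 and -0.68. Its summed pericyte markers (7.15 TPM over 5 genes) were near those of the other *P0-3.9GFPCre* pools (7.58 and 7.61 TPM), whereas its endothelial markers were the lowest of all pools (19.6 TPM). *Le-Cre* replicate 2, lowest in *Rgs4* of its line, likewise had the line's highest Y-linked level (74.2 CPM) and lowest endothelial sum (25.3 TPM). *FVB/N* went the other way. There replicate 2 had the highest Y-linked level (193 CPM) and the highest *Rgs4*. Replicate 3 had the highest endothelial sum (39.7 TPM) and the lowest *Rgs4*. The part of the Y-linked share or of vascular cells in the *Rgs4* values was not tested beyond that fit. Between *Le-Cre* and *FVB/N*, whose Y-linked levels do not overlap, the fit cannot tell the line from the Y-linked share.

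*Rgs2* was measured at 4.16, 3.53 and 2.29 CPM in the *FVB/N* pools, at 3.13, 2.03 and 2.83 CPM in the *P0-3.9GFPCre* pools and at 3.98, 5.07 and 2.94 CPM in the *Le-Cre* pools. The ranges of all 3 lines overlapped. The log2 fold change between the transgenic lines was 0.58 (SE 0.28, adjusted p 0.661 by the edgeR test), and those against *FVB/N* were 0.27 (SE 0.28) for *Le-Cre* and -0.32 (SE 0.28) for *P0-3.9GFPCre*.

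*Rgs10* rested on very few reads. It had 6, 6 and 1 reads in the *FVB/N* pools, 17, 4 and 7 in the *P0-3.9GFPCre* pools and 22, 13 and 11 in the *Le-Cre* pools. Every *Le-Cre* pool was above every *FVB/N* pool, and the *P0-3.9GFPCre* pools overlapped both lines. Between *Le-Cre* and *FVB/N*, 13.5% of all tested genes had pools that did not overlap. *Rgs10* met the read minimum of the test through the *Le-Cre* pools. It was not tested when only the *FVB/N* and *P0-3.9GFPCre* pools were used. Its separation of pools and its p are therefore given as a description. The log2 fold change of *Le-Cre* against *FVB/N* was 1.74 (SE 0.68), with an adjusted p of 0.58 by the edgeR test (unadjusted p 0.0273), and counting error alone amounted to 48.0% of the *FVB/N* mean and 25.5% of the *Le-Cre* mean. The 5 macrophage markers summed to 0.44 to 0.68 TPM in *FVB/N*, 0.62 to 1.41 in *P0-3.9GFPCre* and 0.63 to 1 in *Le-Cre*. *P0-3.9GFPCre* replicate 1 had both the highest macrophage sum and the most *Rgs10* reads of its line, whereas *Le-Cre* replicate 1 had the most *Rgs10* reads and the lowest macrophage sum (0.63 TPM) of its line. The part of such cells in the *Rgs10* difference was not tested.

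*Rgs12* was lowest in *Le-Cre*, but its ranges overlapped. It stood at 6.23 ± 0.621 CPM in *FVB/N*, 5.65 ± 0.616 in *P0-3.9GFPCre* and 5.03 ± 1.25 in *Le-Cre* (SD, n = 3 each), with *Le-Cre* replicate 2 at 3.59 CPM below all other pools. The log2 fold change of *Le-Cre* against *FVB/N* was -0.31 (SE 0.19, adjusted p 0.752 by the edgeR test). *Rgs12* overlaps the antisense gene *Gm43791*, which had 24.0 reads over the 9 pools against 1222 for *Rgs12*.

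The membrane-anchored regulators *Rgs19* and *Rgs17* were the least informative. *Rgs19* had 2.26 ± 0.706 CPM in *FVB/N*, 2.09 ± 0.192 in *P0-3.9GFPCre* and 1.92 ± 0.563 in *Le-Cre* (SD, n = 3 each), and its log2 fold changes against *FVB/N* were -0.11 (SE 0.31) for *P0-3.9GFPCre* and -0.23 (SE 0.31) for *Le-Cre*. On the TPM scale *Rgs19* read higher in *P0-3.9GFPCre* (2.52 to 3.38 TPM) than in *FVB/N* (2 to 2.19 TPM). RSEM's transcript length for *Rgs19*, which enters TPM but not CPM, was 704 to 1081 bases in *P0-3.9GFPCre* and 990 to 1467 bases in *FVB/N*. In CPM these lines overlapped (1.93 to 2.30 in *P0-3.9GFPCre* and 1.78 to 3.07 in *FVB/N*). *Rgs17* had 0 to 8 reads per pool and did not reach the read minimum for the test. It had no reads in *P0-3.9GFPCre* replicate 3 and *Le-Cre* replicate 3, which allows up to 0.135 and 0.136 CPM (3 reads), counting error only.

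**Figure D3:**
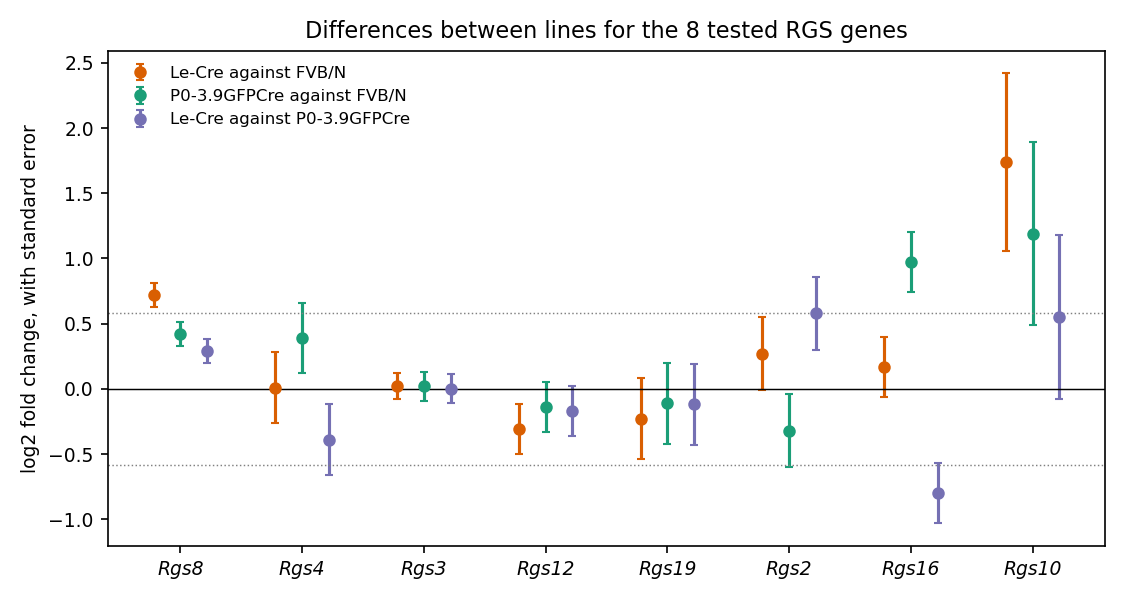
Log2 fold change with its standard error (vertical axis) of the 8 tested RGS genes in the 3 comparisons of lines; dotted lines mark 1.5-fold in either direction. Rgs8 is positive in all comparisons (0.72, 0.42 and 0.29), Rgs16 is positive for P0-3.9GFPCre and negative for Le-Cre against P0-3.9GFPCre, and Rgs10 has the widest errors.

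Counted over the family, few genes set the lines apart. In *Le-Cre* against *FVB/N*, 0 of the 7 tested genes other than *Rgs8* passed the cutoff. *Rgs10* had an unadjusted p under 0.05 by the edgeR test (7.94% of all genes) and non-overlapping pools (13.5% of all genes). It met the read minimum of the test through the *Le-Cre* pools, where it was highest, and is not counted. In *P0-3.9GFPCre* against *FVB/N*, 0 of 8 tested genes passed the cutoff, as did 0.0% of all genes. *Rgs16* had an unadjusted p under 0.05 by the edgeR test (6.81% of all genes) and non-overlapping pools (12.0% of all genes). *Rgs8* did too, but it was picked on the same *FVB/N* pools and is not counted. In *Le-Cre* against *P0-3.9GFPCre*, 0 of 8 passed the cutoff, again with 0.0% of all genes. There *Rgs16* again had an unadjusted p under 0.05 (7.88% of all genes) and non-overlapping pools (14.1% of all genes). *Rgs8* had both as well, but it was picked on the same *Le-Cre* pools and is not counted. DESeq2 called 0 and limma on log2 TPM called 0 of these genes in the last 2 comparisons, in which DESeq2 called 11 and 32 of all genes and limma called 0. The 3 comparisons share pools and are not independent of one another.

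The neighbors of *Rgs8* on the chromosome were compared in the same way. Of 23 annotated genes within 250 kb, 10 were tested, *Rgs8* and *Rgs16* included, and 9 of these are reported. *Dhx9*, an RNA helicase gene, gave log2 fold changes of -0.03 (SE 0.06) in *Le-Cre* and -0.07 (SE 0.06) in *P0-3.9GFPCre* against *FVB/N*. *Npl*, a sialic acid lyase gene, gave -0.27 (SE 0.21) and 0.28 (SE 0.21), and *Glul*, which encodes glutamine synthetase, -0.18 (SE 0.25) and 0.24 (SE 0.25). *5530400K19Rik*, which lies between *Rgs8* and *Rgs16*, gave -0.08 (SE 0.25) and -0.26 (SE 0.26). None of the other 7 reported neighbors passed the cutoff in any comparison by the edgeR test. Of all tested genes, 0.0643% passed it in *Le-Cre* against *FVB/N* and 0.0% in the other comparisons. *Npl* had an unadjusted p of 0.0238 by the edgeR test in *Le-Cre* against *P0-3.9GFPCre* (log2 fold change -0.55, adjusted p 0.535). There 7.88% of all genes were under 0.05.

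**Figure D4:**
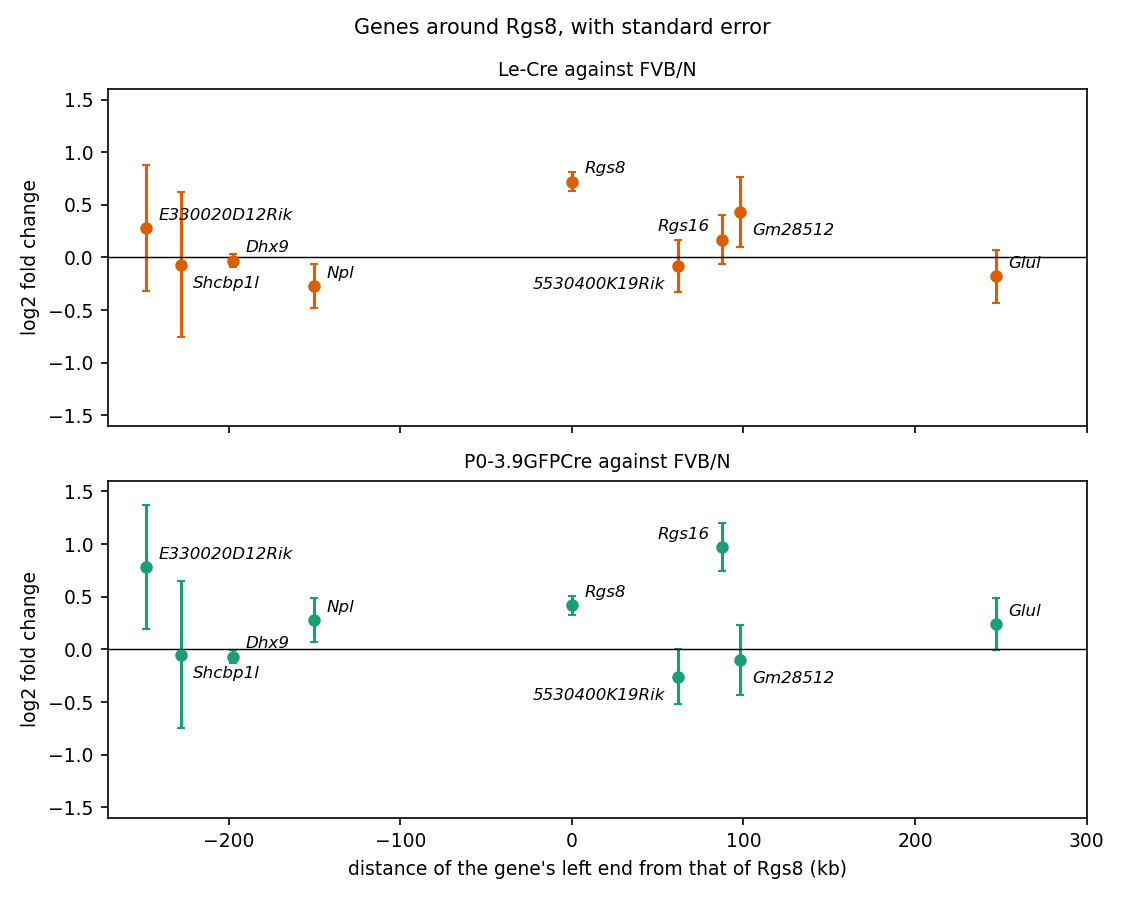
Log2 fold change with standard error (vertical axes) of 9 tested genes within 250 kb of Rgs8, against the distance between the left ends of the gene and of Rgs8 in kb (horizontal axis), for each transgenic line against FVB/N. Rgs8, which was picked for its rise in Le-Cre, has the highest value in the Le-Cre panel (0.72). Rgs16, 87.3 kb away, has the highest in the P0-3.9GFPCre panel (0.97).

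The genes whose CPM followed *Rgs8* most closely over the 9 pools were *Vps33a*, a subunit of vesicle tethering complexes of the lysosome (Pearson r = 0.966 on the log2 scale), *Man2a1*, a mannosidase of the Golgi (0.958), the unnamed transcripts *Gm13610* (0.944) and *9630028B13Rik* (0.942), and *Ddit4l*, an inhibitor of mTOR signaling (0.941). They led 13040 compared genes of at least 1 CPM on average, and the pools of a line share that line. After the line means were removed, the r of these 5 genes with *Rgs8* was 0.69, 0.90, 0.80, 0.51 and 0.52 in the same order, as a description over 9 pools. *Vps33a*, for example, stood at 31.5 ± 0.432 CPM in *FVB/N*, 34.4 ± 1.17 in *P0-3.9GFPCre* and 36.5 ± 0.875 in *Le-Cre* (SD, n = 3 each). *Ddit4l* stood at 0.332 ± 0.268, 0.935 ± 0.13 and 2.06 ± 0.0789 CPM in the same order of lines. It reached 1 CPM on average only through *Le-Cre*, the line for which *Rgs8* was picked, so its place in this list follows in part from that minimum. Of the other RGS genes examined with at least 1 CPM, *Rgs16* had r = 0.32, *Rgs2* 0.23, *Rgs4* 0.00, *Rgs3* -0.08, *Rgs19* -0.36 and *Rgs12* -0.57 with *Rgs8*. Among the further *Rgs* genes, *Rgs9*, singled out after its values were seen, had line means in the same order as *Rgs8*. They were 2.39 ± 0.668, 2.80 ± 0.468 and 3.44 ± 0.546 CPM in *FVB/N*, *P0-3.9GFPCre* and *Le-Cre*. Its log2 fold change in *Le-Cre* against *FVB/N* was 0.52 (SE 0.26, adjusted p 0.682 by the edgeR test). The line means of *Rgs11* ran in the opposite order (11.2 ± 1.95, 9.09 ± 1.19 and 8.53 ± 0.442 CPM). The share of all genes with either order was not counted.

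The most abundant G protein subunits stood far above the RGS genes in TPM, and 0 of the subunit genes passed the cutoff. Of all genes tested, 0.0643% passed it in *Le-Cre* against *FVB/N* and 0.0% in the other comparisons. With so few calls among all genes, 0 calls in this list or those below say little about that list. *Gnas*, the Gs alpha subunit, which RGS proteins of this family do not deactivate, stood at 1280 TPM on average over the 9 pools. *Gnai2* followed with 171 TPM and *Gnai3* with 28.4 TPM, both Gi alpha subunits. Of 16 alpha subunit genes, 13 were tested and 0 passed the cutoff in either direction in any comparison, with a median log2 fold change of -0.02 in *Le-Cre* and -0.03 in *P0-3.9GFPCre* against *FVB/N*, beside 0.00 over all genes in both. For *Gnai2* these values were 0.03 (SE 0.06) and 0.05 (SE 0.06). By the edgeR test, *Gnao1* alone had an unadjusted p under 0.05, in *P0-3.9GFPCre* against *FVB/N* (log2 fold change 0.30, SE 0.14). This was 1 of 13 genes, against 6.81% of all genes tested.

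Of 16 beta and gamma subunit genes, 10 were tested and 0 passed the cutoff in any comparison, with medians of -0.04 and -0.01. The highest were *Gng5* (288 TPM), *Gnb1* (164 TPM) and *Gnb2* (76.9 TPM). *Gng12*, a widely expressed gamma subunit singled out here after its values were seen, had log2 fold changes of 0.41 (SE 0.09) in *Le-Cre* and 0.36 (SE 0.09) in *P0-3.9GFPCre* against *FVB/N*, both under 1.5-fold, with unadjusted p of 0.00103 and 0.00251 by the edgeR test and a smallest adjusted p of 0.236. It was the 1 of 10 tested genes with an unadjusted p under 0.05 in each of these comparisons, against 7.94% and 6.81% of all genes. *Gnb4* and *Gng5* had an unadjusted p under 0.05 by the edgeR test in *Le-Cre* against *P0-3.9GFPCre*, or 2 of 10 against 7.88%.

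Among 20 effector genes, 16 were tested and 0 passed the cutoff. *Plcb4*, a Gq-activated phospholipase C (7.31 TPM), and the adenylyl cyclases *Adcy6* (3.48 TPM) and *Adcy9* (3.38 TPM) were highest. In *Le-Cre* against *FVB/N*, *Adcy6* gave -0.33 (SE 0.11), *Adcy5* -0.35 (SE 0.15) and *Adcy7* 0.80 (SE 0.34), the 3 of 16 effectors with an unadjusted p under 0.05 by the edgeR test, against 7.94% of all genes tested. In *P0-3.9GFPCre* against *FVB/N* those were the IP3 receptor genes *Itpr1* (-0.24, SE 0.10) and *Itpr2* (-0.50, SE 0.13), or 2 of 16 against 6.81%, and in *Le-Cre* against *P0-3.9GFPCre* they were *Adcy6* and *Itpr1*, or 2 of 16 against 7.88%. These genes were named for that threshold after their values were seen, and the smallest adjusted p among the effectors was 0.48.

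The proteins that work beside RGS proteins included none past the cutoff either. Of 15 genes of RGS partners and other RGS-domain proteins, all were tested and 0 passed the cutoff, with medians of 0.04 in *Le-Cre* and 0.02 in *P0-3.9GFPCre* against *FVB/N*. *Gpsm1*, which holds Gi alpha in its GDP-bound form (17.7 TPM), *Snx14*, a sorting nexin with an RGS-like domain (16.6 TPM), and the RhoGEF gene *Arhgef12* (15.2 TPM) were highest. *Gpsm1* (log2 fold change 0.26, SE 0.10) and *Axin2*, a Wnt feedback gene with an RGS-like domain (-0.42, SE 0.16), had an unadjusted p under 0.05 by the edgeR test in *P0-3.9GFPCre* against *FVB/N*. These were 2 of 15, against 6.81% of all genes tested. Of 8 receptor kinase and arrestin genes, led by *Adrbk1* (13.0 TPM), *Grk6* (10.2 TPM) and *Arrb2* (6.36 TPM), 0 passed the cutoff, with medians of -0.07 and 0.03. *Grk6* gave -0.21 (SE 0.08) in *Le-Cre* and *Grk1*, with at most 14.6 reads in a pool, -2.26 (SE 0.77) in *P0-3.9GFPCre*, each against *FVB/N*. Each was the 1 of 8 with an unadjusted p under 0.05 by the edgeR test there, against 7.94% and 6.81% of all genes. Both also had one in *Le-Cre* against *P0-3.9GFPCre*, or 2 of 8 against 7.88%. *Grk1* met the read minimum of the test through the *FVB/N* pools, where it was highest (0.527 ± 0.034 CPM, and 0.108 ± 0.123 in *P0-3.9GFPCre*). Its p is therefore a description, and its part in these counts carries no weight. Of the 13 further *Rgs* genes, 5 were tested and 0 passed the cutoff, with medians of -0.39 and -0.20. *Rgs11* in *Le-Cre* against *FVB/N* had an unadjusted p of 0.02 by the edgeR test (log2 fold change -0.39, SE 0.14). It was the 1 of 5 under 0.05 there, against 7.94% of all genes. DESeq2 and limma on log2 TPM also called 0 genes of these lists. Of all 27804 genes in the DESeq2 test, 49 were called in *Le-Cre* and 11 in *P0-3.9GFPCre* against *FVB/N*, and limma called 0.

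**Figure D5:**
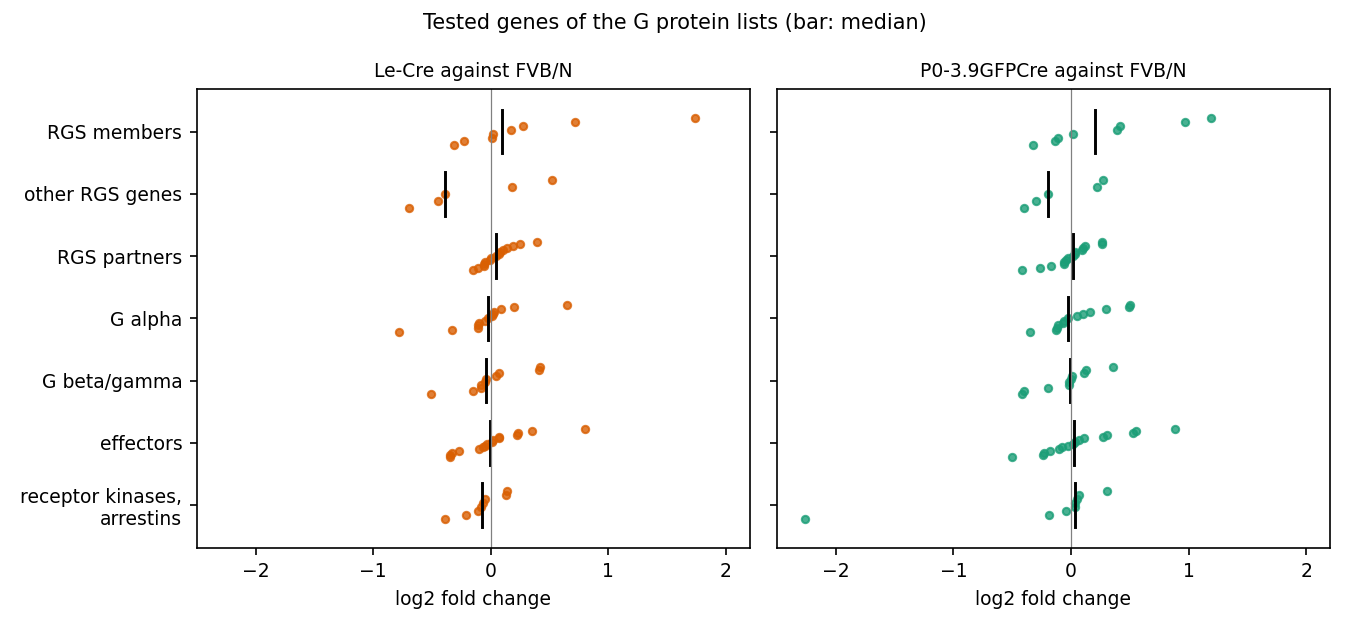
Log2 fold change (horizontal axes) of each tested gene of the RGS and G protein lists, for each transgenic line against FVB/N; points are genes, spread vertically only for legibility, and bars are list medians. The points of the G protein lists gather around 0, with medians between -0.07 and 0.04. Rgs8 was picked for its rise in Le-Cre, so its place in that panel is a description. No other gene of a list passed the cutoff. Of all tested genes, 0.0643% passed it in Le-Cre and 0.0% in P0-3.9GFPCre against FVB/N.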

How the data were processed

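RNA-Seq tables of 9 pools, one table per pool, were analyzed. Per the labels and the paper's methods, the authors made single-end reads from polyadenylated RNA, used Trimmomatic 0.36 for trimming, GSNAP for alignment to GRCm38 and RSEM 1.3.0 for quantification, and the submitters' notes also name DESeq2 1.10.1. The gene annotation is not given in the sources used here. The deposited expected counts are RSEM's estimated reads per gene, not normalized. The deposited TPM values are scaled for effective length and depth. The authors' tables also give transcript length in bases and RSEM's posterior SD of the count. All gene-level reads are summed over isoforms, so a change in length moves TPM but not counts.

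Expected counts were rounded and tested with edgeR 4.0.16 in R 4.3.3 (TMM, filterByExpr, glmQLFit and glmQLFTest, one coefficient per line over all 9 pools, Benjamini-Hochberg adjustment over 15557 genes). The paper's methods name DESeq2, run here as an alternative (1.42.0), as was limma 3.58.1 on log2(TPM + 0.1). Fold changes on that scale understate those of low genes. A call needed 1.5-fold and an adjusted p no higher than 0.05. CPM used TMM-scaled library sizes. The edgeR steps alone were tried on simulated counts with known changes, all larger than the folds given for *Rgs8*. The pools of a line differed by more than sampling noise and were kept as separate replicates, and pools within a line are distinct groups of mice per the labels. Positions and shared 51-base sequences came from GENCODE M21, in which 47224 of 47729 identifiers were found, and promoter windows from RefSeq GRCm38.p6. The text names all 9 genes, the 3 genes of highest mean TPM in each list plus those past the cutoff, the 5 genes closest to *Rgs8* and tested neighbors, of which 1 is not reported here; genes given for an unadjusted p were named after their values were seen. The genes and lists were chosen with earlier results of these data known. Other choices tried were RLE size factors, other read minimums, only the compared pools, no minimum fold, the Y-linked share, the replicate number as a block and leaving out each pool.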

Additional observations from a re-analysis of the deposited data

How the results depend on the processing

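The number of RGS genes past the cutoff in *Le-Cre* against *FVB/N* was 1, *Rgs8*, which had been picked for this contrast so that the number is a description, and became 0 in the fit that included the Y-linked share, with the replicate block and with limma on log2 TPM. It ranged from 0 to 1 over the pools left out, with 0 without *FVB/N* replicate 2 or 3 or without any of the 3 *Le-Cre* pools. The fold of *Rgs8* in this contrast kept its direction, at 0.65 to 0.83 on the log2 scale over the pools left out. In the other comparisons the number was 0 under every alternative. For *Rgs8* in *P0-3.9GFPCre* against *FVB/N* the adjusted p was 0.0141 with DESeq2 and 0.00731 without a read minimum, always under 1.5-fold, and its log2 fold change was 0.36 to 0.54 over the pools left out. *Rgs16* gave 0.78 to 1.09 in that comparison and -0.92 to -0.61 in *Le-Cre* against *P0-3.9GFPCre*.

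Some fold changes that did not pass the cutoff changed sign, and the causes were not tested. On log2 TPM this held for *Rgs2* (0.02) and *Rgs19* (0.50) in *P0-3.9GFPCre* against *FVB/N*, for *Rgs4* (-0.03) and *Rgs19* (0.02) in *Le-Cre* against *FVB/N*, and for *Rgs12* (0.04) in *Le-Cre* against *P0-3.9GFPCre*. With the Y-linked share it held for *Rgs4* in *Le-Cre* (-0.68) and *P0-3.9GFPCre* (-0.15) against *FVB/N* and for *Rgs3* in *Le-Cre* against *P0-3.9GFPCre* (0.00). Over the pools left out, *Le-Cre* against *FVB/N* ranged from -0.04 to 0.09 for *Rgs3*, -0.08 to 0.17 for *Rgs4*, 0.00 to 0.28 for *Rgs16* and -0.40 to 0.05 for *Rgs19*. *P0-3.9GFPCre* against *FVB/N* ranged from -0.04 to 0.08 for *Rgs3* and -0.26 to 0.17 for *Rgs19*, and *Le-Cre* against *P0-3.9GFPCre* from -0.05 to 0.05 for *Rgs3*, -0.29 to 0.02 for *Rgs12* and -0.29 to 0.10 for *Rgs19*.

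The replicate numbers did not pair the pools, since deviations of same-numbered pools from their line means correlated at 0.03 on average (-0.15 to 0.14 over 9 pairs) and those of other pools at -0.02 (-0.21 to 0.16 over 18 pairs). As a block they lowered the number of genes called in *Le-Cre* against *FVB/N* from 10 to 2, took *Rgs8* below the cutoff at 0.72 and turned *Rgs4* to -0.03. Over all genes, the number called in this contrast was 131 without a read minimum, 49 with DESeq2, 5 with a mean of at least 10 counts, 1 with the Y-linked share and 0 with limma. With 3 pools per line, genes of few reads such as *Rgs10* and *Rgs17* could not be resolved.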
